A study of Mus musculus with 8 samples.

Results

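The heart's fatty acid uptake and oxidation machinery was followed through 32 listed genes, chosen by name, in the left ventricle of 2 mouse strains after coronary ligation. Each gene was read from the brightest of the probe sets that the array's annotation ties to its symbol alone. Such a probe set was found for 29 of the 32, against 12393 genes in all. A signal of at least 121, the median of all deposited values, on at least 2 arrays was reached by 27 of them and by 8195 genes in all, and those 27 reached it on all 8 arrays. Acsl4 (60.2 and 97.3 on the untreated C57BL/6 and MRL/MpJ arrays) and Ehhadh (72.1 and 59.5) stayed below that limit on every array and were not tested. Acsl1 and Acsl3 had no probe set in the annotation used here, and the muscle form Cpt1b was reached only by a probe set that carries more than 1 symbol, so these 3 genes were not analysed here.

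The ventricles came from male C57BL/6 and MRL/MpJ mice aged 2 to 4 months, either untreated or taken at day 3, 30 or 60 after the left anterior descending (LAD) artery had been tied off, which cuts off the blood supply of part of the ventricular wall. C57BL/6 is a common laboratory strain and MRL/MpJ a strain known for closing ear wounds. There was 1 Affymetrix array for each strain and time, so 8 groups of 1 array, and all of them measured total RNA of whole tissue. The untreated hearts are not described as sham operated, and the labels state neither whether an array holds 1 animal or a pool nor how close to the scar the tissue lay. In such tissue, fewer muscle cells and less RNA per muscle cell cannot be told apart.

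Fatty acids are the main fuel of the adult heart. Lipoprotein lipase (Lpl) frees them from circulating lipoproteins, Cd36 lets them into the muscle cell, Fabp3 binds them in the cytosol, and acyl-CoA synthetases activate them. The carnitine palmitoyltransferases Cpt1 and Cpt2 pass them into the mitochondrion, where a repeating series of dehydrogenation, hydration, second dehydrogenation and thiolytic cleavage shortens the chain and feeds electrons to the respiratory chain, and the nuclear receptor PPAR alpha (Ppara) drives transcription of much of the pathway.

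The deposited signals share a common level, with a mean after trimming 2% at each end of 247 to 248 on every array. The C57BL/6 day 30 array stood apart. Its log2 values correlated with those of the other 7 arrays at r = 0.844 to 0.877, whereas those 7 correlated with each other at 0.884 to 0.948, and its brightest signal was 75193 against 26763 to 38118 elsewhere. Counts of members over all ligated arrays are therefore given without it too. So are counts of members lower at an unadjusted p, for ligated hearts and for each day against untreated. Other counts at an unadjusted p, such as those for strain differences, day 60 against day 3 and other gene lists, were made only with it. All 20 cardiomyocyte markers examined, such as Myh6 and Tnnt2, were at or above 121 on each of the 8 arrays.

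The enzymes inside the mitochondrion were high or low together on the same arrays, with no simple time course. Over the 17 enzymes of mitochondrial β-oxidation, the median log2 change against the untreated array of the same strain was -0.12 in C57BL/6 at day 3, -0.70 at day 30 and -0.30 at day 60. In MRL/MpJ the corresponding medians were -0.90, -0.29 and -0.85. The 3 arrays with the lowest enzyme signals were C57BL/6 day 30, MRL/MpJ day 3 and MRL/MpJ day 60, and the C57BL/6 day 3 array lay close to its untreated array. By their brightest probe sets, the genes of uptake and cytosolic binding lay closer to their untreated signals, with changes between -0.46 and 0.34. Dimmer probe sets of Cd36 and Lpl were lower, down to -1.25 for Cd36 on C57BL/6 day 30 and -0.83 for Lpl on MRL/MpJ day 3. Acsl5, Cpt1a and Acaa1a were on average higher after ligation. Changes are on the scale of log2(signal + 28.6), where 28.6 is the 20th percentile of all values, and ratios of signals are given without that offset.

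**Figure D1:**
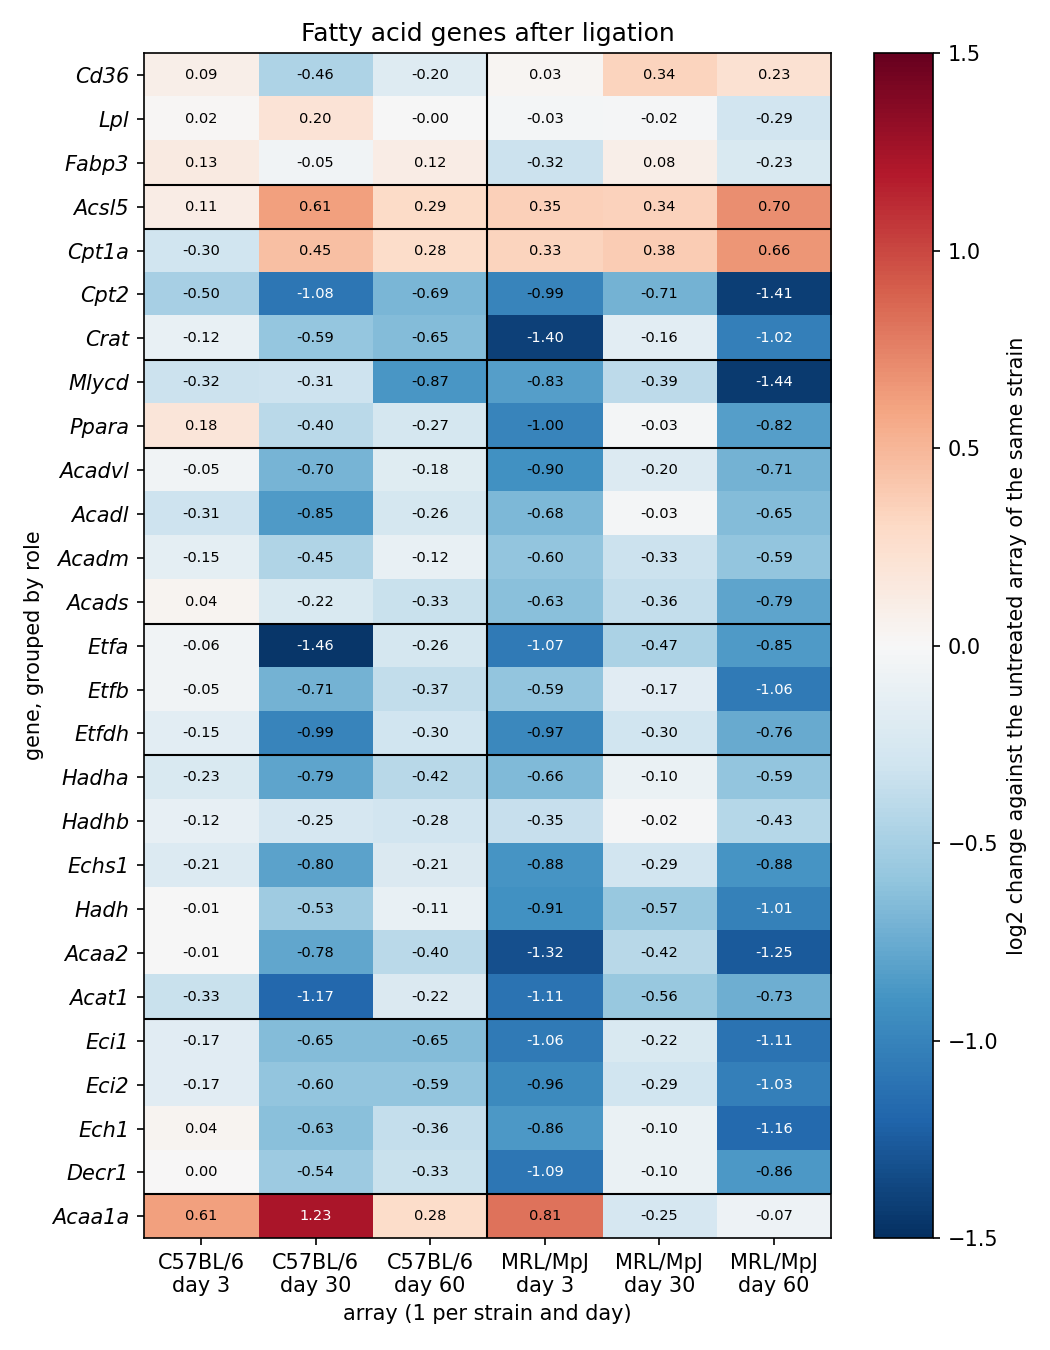
Log2 change of the 27 genes (rows, grouped by role) on each of the 6 ligated arrays (columns, 1 array each) against the untreated array of the same strain, with the value printed in each cell; blue is lower and red is higher. Most rows from Cpt2 to Decr1 are darkest on C57BL/6 day 30, MRL/MpJ day 3 and MRL/MpJ day 60, with Etfa at -1.46 on C57BL/6 day 30 and Mlycd at -1.44 on MRL/MpJ day 60.

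Signals are given per strain in the order untreated, day 3, day 30 and day 60, and as single arrays they carry no error of their own. Uptake and binding came first. Cd36, the main membrane transporter of long-chain fatty acids, was at 6256, 6656, 4528 and 5447 in C57BL/6 and at 4848, 4954, 6135 and 5686 in MRL/MpJ. Its lowest signal was on C57BL/6 day 30, and the ligated signals overlapped the untreated ones. Lpl was at 19840.5, 20136, 22799 and 19813 in C57BL/6 and at 19666, 19234, 19415 and 16075 in MRL/MpJ, and Fabp3, the heart's cytosolic fatty acid binding protein, was at 18358, 20107, 17744 and 19897 in C57BL/6 and at 21667, 17337, 22962 and 18460.3 in MRL/MpJ. In both, ligated and untreated signals overlapped. Both lay above 99.8% of genes in mean signal, near the top of the arrays, where a probe set can saturate and differences can be compressed. Across the 6 ligated arrays the changes of these 3 genes by their brightest probe sets ran from -0.46 (Cd36, C57BL/6 day 30) to 0.34 (Cd36, MRL/MpJ day 30).

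The promoter of Cd36 is one of 3 among the genes here that hold a sequence like the element bound by PPAR with its partner RXR. RefSeq windows from 250 bases before to 50 bases after the start site (build GRCm38.p6) were on hand for 26 of the 32 genes, 27 windows in all. They were searched on both strands for 2 AGGTCA cores 1 base apart with at most 2 mismatches over both cores. The element was found in 3 of the 27 windows (11.1%), in Cd36, Etfa and Echs1, against 3.86% of all 32851 windows. Cd36 lies on the minus strand of chromosome 5, and its window (chr5:17835847-17836146) reads 5′ to 3′ with 2 matches in capitals: a lone AGGTCA core on the opposite strand, and further on the PPAR-like element, also on the opposite strand, whose leftmost base is 63 bases before the start site.
Cd36: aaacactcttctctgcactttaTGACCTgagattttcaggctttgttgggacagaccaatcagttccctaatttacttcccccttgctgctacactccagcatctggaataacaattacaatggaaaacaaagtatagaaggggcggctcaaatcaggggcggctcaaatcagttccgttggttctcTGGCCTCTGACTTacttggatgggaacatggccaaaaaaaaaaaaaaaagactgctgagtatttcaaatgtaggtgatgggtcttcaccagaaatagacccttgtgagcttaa
An element of this kind is a match of letters and not a shown binding site. The lone AGGTCA core was in 5 windows (18.5%, in Acadm, Acadvl, Cd36, Cpt1a and Echs1) against 16.3% of all windows, and a core preceded by TCA, the form read by oestrogen-related receptors, was in 0 of 27 against 0.423%.

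Activation and entry held genes on both sides of their untreated signals. Acsl5, an acyl-CoA synthetase of the outer mitochondrial membrane and endoplasmic reticulum, was at 249, 272, 395 and 310.4 in C57BL/6 and at 226, 296, 293 and 383 in MRL/MpJ. It was the only one of the 27 genes with all 6 ligated arrays above both untreated arrays, as were 6.71% of all genes tested, and it kept that order without the C57BL/6 day 30 array (8.32% of genes). Cpt1a, the liver-type isoform of the enzyme that makes acylcarnitines at the outer mitochondrial membrane, was at 393, 314, 548.5 and 484 in C57BL/6 and at 333, 426, 443 and 544 in MRL/MpJ. It was above its own untreated array on 5 of the 6 ligated arrays, and below it on C57BL/6 day 3.

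Cpt2, which turns acylcarnitines back into acyl-CoA at the inner membrane, had the lowest estimate of all members over the ligated hearts by its brightest probe set. Its dimmer probe set, at or above 121 on all 8 arrays, had a mean change of 0.03. The brightest gave signals of 1964, 1385, 914 and 1211 in C57BL/6 and 1724.5, 855, 1045 and 629 in MRL/MpJ, so every ligated array lay below both untreated arrays. The ratio of the untreated to the ligated signal ran from 1.42 on C57BL/6 day 3 to 2.74 on MRL/MpJ day 60. Crat, which moves short acyl groups between carnitine and CoA, was at 1032, 949.8, 678 and 645 in C57BL/6 and at 1339, 488.5, 1197 and 646 in MRL/MpJ. Here the MRL/MpJ day 30 signal lay above the untreated C57BL/6 signal, so the groups overlapped, while MRL/MpJ day 3 was the lowest array.

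The genes that control the pathway were lower late and in MRL/MpJ early. Mlycd, which removes malonyl-CoA, the inhibitor of Cpt1, was at 725, 576, 578 and 384 in C57BL/6 and at 697, 380.2, 526 and 239 in MRL/MpJ. All ligated arrays were below both untreated arrays, and the 2 day 60 arrays and MRL/MpJ day 3 were lowest. Ppara itself was dim, at 325, 374, 239.6 and 265 in C57BL/6 and 375, 174, 365 and 199.5 in MRL/MpJ. Its lowest array was MRL/MpJ day 3, and its C57BL/6 day 3 and MRL/MpJ day 30 signals lay among the untreated ones.

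**Figure D2:**
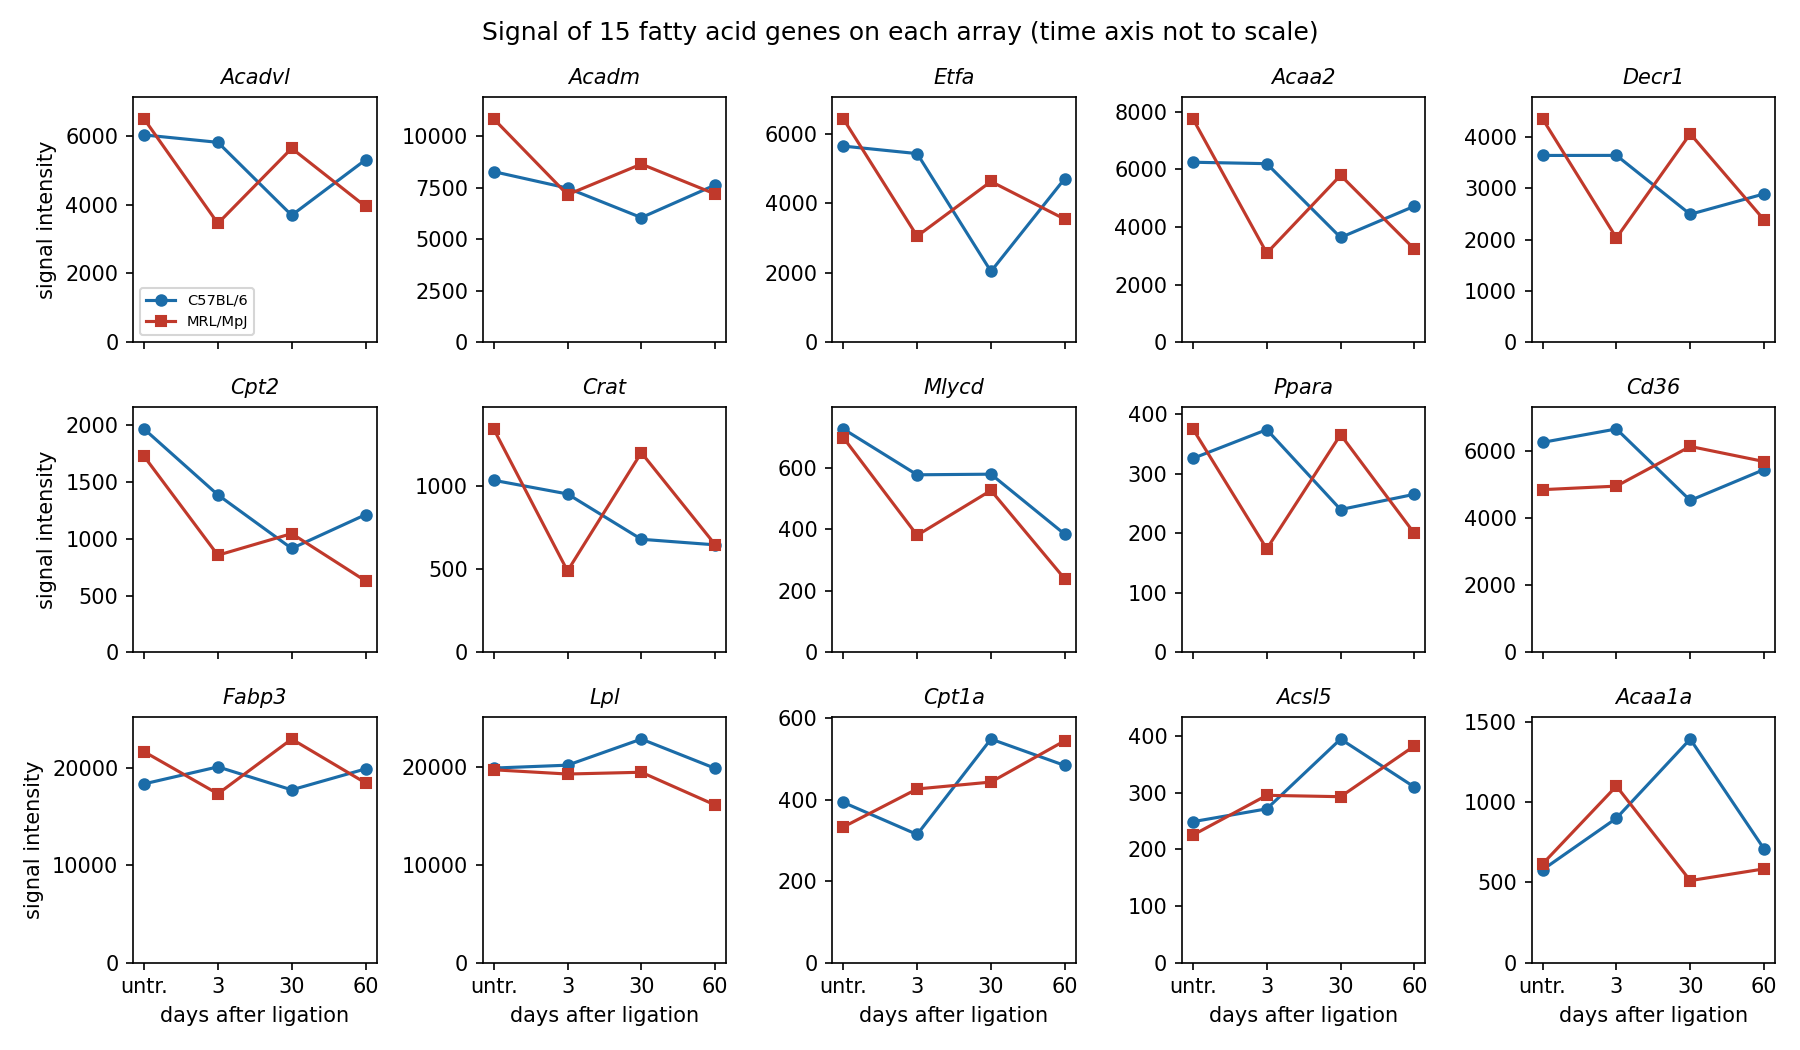
Deposited signal intensity (vertical axes, linear and starting at 0) of 15 of the genes on each of the 8 arrays, by time after ligation (horizontal axis, untreated at the left, not to scale), with C57BL/6 in blue circles and MRL/MpJ in red squares; each point is 1 array, so there are no error bars. In most enzyme panels the strains cross between day 3, where MRL/MpJ is lower, and day 30, where C57BL/6 is lower; Lpl and Fabp3 stay between 16075 and 22962.

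The acyl-CoA dehydrogenases catalyse the opening reaction, each for its own chain length. Acadvl, for very long chains, was at 6019, 5804, 3687.5 and 5296 in C57BL/6 and at 6485, 3452, 5630.5 and 3945 in MRL/MpJ, with all ligated arrays below both untreated arrays. Acadl, for long chains, was at 7317, 5897, 4056 and 6086 in C57BL/6 and 8264, 5152, 8094 and 5258 in MRL/MpJ, and Acadm, the medium-chain enzyme, at 8275.5, 7478, 6047 and 7628 in C57BL/6 and 10834, 7158, 8641 and 7191 in MRL/MpJ. In both genes the C57BL/6 day 30 array was lowest and the MRL/MpJ day 30 array lay above the untreated C57BL/6 array. Acads, for short chains, was dimmer, at 1467, 1512, 1252 and 1159 in C57BL/6 and 1733, 1108, 1343 and 990.1 in MRL/MpJ, and its C57BL/6 day 3 signal was above the untreated one.

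Electron transfer flavoprotein carries the electrons of these dehydrogenases to the respiratory chain. Its alpha subunit Etfa was at 5649.7, 5434, 2042 and 4715 in C57BL/6 and at 6434, 3058, 4631 and 3547 in MRL/MpJ, with C57BL/6 day 30 at 2.77-fold below its untreated array. On the log2(signal + 28.6) scale that was the lowest value of the 27 genes on any array, at -1.46 against -1.44 for Mlycd on MRL/MpJ day 60, but by the ratio of signals alone Mlycd was lower, at 2.92-fold. The beta subunit Etfb was at 8771, 8487, 5337 and 6782 in C57BL/6 and 9606, 6380.5, 8547 and 4579 in MRL/MpJ. The oxidoreductase Etfdh, which hands the electrons to ubiquinone, was at 3047.5, 2738.5, 1521 and 2468 in C57BL/6 and 3283, 1659.9, 2669 and 1925.5 in MRL/MpJ. All 3 genes had every ligated array below both untreated arrays. Etfa lies on the minus strand of chromosome 9, and its promoter window (chr9:55512194-55512493) holds the PPAR-like element in capitals, on the opposite strand, its leftmost base 77 bases before the start site.
Etfa: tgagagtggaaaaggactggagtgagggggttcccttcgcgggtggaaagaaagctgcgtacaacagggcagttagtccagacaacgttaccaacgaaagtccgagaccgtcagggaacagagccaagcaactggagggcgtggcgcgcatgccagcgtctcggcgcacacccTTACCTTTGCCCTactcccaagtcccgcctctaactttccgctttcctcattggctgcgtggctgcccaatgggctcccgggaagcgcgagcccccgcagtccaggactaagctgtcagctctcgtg
Cd36 and Etfa share this kind of match and differed in signal by their brightest probe sets, Cd36 lying within its untreated range on 4 of the 6 ligated arrays while Etfa was below it on all 6. The dimmest probe set of Cd36, however, had a mean change of -0.70 over the ligated arrays, beside -0.69 for Etfa.

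The later steps of the spiral are run by the trifunctional protein (Hadha and Hadhb) for long chains and by the matrix enzymes Echs1 (hydratase), Hadh (dehydrogenase) and Acaa2 (thiolase) for shorter ones, and Acat1 cleaves acetoacetyl-CoA. Hadha was at 6346, 5421, 3667 and 4751 in C57BL/6 and at 5669.9, 3584, 5303.5 and 3750.0 in MRL/MpJ. Hadhb, its partner, was brighter and by its brightest probe set flatter, at 11151, 10249, 9382 and 9169 in C57BL/6 and 10104, 7931, 9977.5 and 7483 in MRL/MpJ, with the smallest estimate of the 17 enzymes. Its second probe set, with a mean signal of 2231, had log2 changes of 0.01, 0.00 and 0.19 in C57BL/6. In MRL/MpJ that probe set gave -0.39, -0.58 and -1.23, so it was not flat there. The ligated arrays were all below both untreated arrays for Hadha but not for Hadhb, whose C57BL/6 day 3 array lay above the untreated MRL/MpJ array.

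Hadha and Hadhb lie head to head on chromosome 5, with 272 bases between their RefSeq start sites (30154980 on the minus strand and 30155253 on the plus strand), so that their upstream sequences overlap. Their promoter windows (chr5:30154931-30155230 and chr5:30155003-30155302) have 228 bases in common. The window of Hadhb is shown 5′ to 3′ on its own strand, with the shared bases in capitals, since these members have a common upstream sequence. By their brightest probe sets, their measured changes were of unequal size.
Hadhb: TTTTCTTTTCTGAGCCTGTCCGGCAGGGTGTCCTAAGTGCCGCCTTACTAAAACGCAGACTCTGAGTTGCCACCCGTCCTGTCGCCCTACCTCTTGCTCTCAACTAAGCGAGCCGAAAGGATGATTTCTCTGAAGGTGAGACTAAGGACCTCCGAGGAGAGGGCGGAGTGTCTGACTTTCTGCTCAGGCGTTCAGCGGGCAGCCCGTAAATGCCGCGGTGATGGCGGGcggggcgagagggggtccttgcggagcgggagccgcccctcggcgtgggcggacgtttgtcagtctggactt
Neither window held the PPAR-like element or the lone core. The log2 changes of the pair on the 6 ligated arrays were -0.23, -0.79 and -0.42 for Hadha and -0.12, -0.25 and -0.28 for Hadhb in C57BL/6, and -0.66, -0.10 and -0.59 against -0.35, -0.02 and -0.43 in MRL/MpJ, in the order of days.

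Echs1 was at 3252, 2807.5, 1859.7 and 2805 in C57BL/6 and at 3580.4, 1932, 2931 and 1929.8 in MRL/MpJ. Hadh was at 11969.9, 11901, 8256 and 11089 in C57BL/6 and 14662, 7812, 9875 and 7263 in MRL/MpJ, read by a probe set of the type that can also match other transcripts. Both had every ligated array below both untreated arrays. The window of Echs1, on the minus strand of chromosome 7 (chr7:140116372-140116671), carries the third PPAR-like element, on the same strand as the gene and starting 83 bases before the start site; its opening core is also the exact AGGTCA match.
Echs1: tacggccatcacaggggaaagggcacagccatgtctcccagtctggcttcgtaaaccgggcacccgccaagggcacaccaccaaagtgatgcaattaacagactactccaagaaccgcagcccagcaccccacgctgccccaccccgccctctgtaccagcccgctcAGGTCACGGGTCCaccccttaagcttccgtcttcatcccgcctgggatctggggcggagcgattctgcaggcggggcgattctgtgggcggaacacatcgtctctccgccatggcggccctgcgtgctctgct
Acaa2 was at 6249, 6199, 3639 and 4724 in C57BL/6 and at 7754, 3098, 5796 and 3235 in MRL/MpJ, and its untreated signal was 2.5-fold above that of day 3 and 2.40-fold above that of day 60 in MRL/MpJ. Acat1 was at 4639.7, 3674, 2041 and 3978 in C57BL/6 and 5346.5, 2466, 3609 and 3214 in MRL/MpJ, lowest on C57BL/6 day 30. For Acaa2 and Acat1 too, no ligated array reached an untreated one by the brightest probe set. A second probe set of Acat1 (mean signal 2084) was at 2423, 2406, 1186 and 2740 in C57BL/6 and 2331, 924, 2418.5 and 2246 in MRL/MpJ. Its ligated and untreated signals overlapped.

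The enzymes that prepare unsaturated fatty acids for the spiral followed the same arrays. The enoyl-CoA isomerase Eci1 was at 3782, 3364, 2399.9 and 2403 in C57BL/6 and at 3814, 1809, 3259.9 and 1748 in MRL/MpJ, and Eci2, a second isomerase, at 939, 831.5, 611 and 616 in C57BL/6 and 971, 485, 787 and 462 in MRL/MpJ. Both had every ligated array below both untreated arrays, with MRL/MpJ day 60 lowest. The dienoyl-CoA isomerase Ech1 was at 9707, 9981, 6254 and 7558.5 in C57BL/6 and 11057, 6092, 10279 and 4919 in MRL/MpJ, and the dienoyl-CoA reductase Decr1 at 3639, 3640.4, 2494 and 2890.4 in C57BL/6 and 4352, 2034, 4061 and 2385 in MRL/MpJ. For these 2 genes the C57BL/6 day 3 array was at or above its untreated array, so that their groups overlapped.

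Outside the mitochondrion, the peroxisomal thiolase Acaa1a went another way. It was at 579, 900.1, 1394 and 709 in C57BL/6 and at 615, 1100.4, 511 and 584 in MRL/MpJ, highest on C57BL/6 day 30 and MRL/MpJ day 3 and lowest on MRL/MpJ day 30. Its probe set is of the type that can match other transcripts, and the near-identical copy Acaa1b makes the source of this signal uncertain. The peroxisomal bifunctional enzyme Ehhadh stayed between 1.6 and 72.1.

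Many of the 27 genes were lower on all ligated arrays, but none passed a corrected test. The share of all genes tested that met each criterion is given beside the count where it was computed. Every ligated array lay below both untreated arrays for 13 of the 27 (Cpt2, Mlycd, Acadvl, Etfa, Etfb, Etfdh, Hadha, Echs1, Hadh, Acaa2, Acat1, Eci1 and Eci2), against 7.11% of all genes, and for the same 13 against 8.8% without the C57BL/6 day 30 array; without the untreated C57BL/6 array the count was 20. All 6 ligated arrays were below the untreated array of their own strain for 17 of the 27, against 11.4% of all genes, and for 17 against 14.1% over the 5 arrays without C57BL/6 day 30. An exact permutation test of 6 against 2 arrays cannot go below p = 0.0714.

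The additive model of strain and time, fitted with limma to all 8195 genes with Benjamini-Hochberg adjustment, put the median of the 27 genes at -0.49 for ligated against untreated hearts, against -0.03 for all genes. No member passed an adjusted p of 0.05, nor did more than 16 genes in all (0.195%). At an unadjusted p under 0.05, 5 members were lower (Cpt2, Mlycd, Acat1, Eci1 and Eci2, or 18.5%) against 4.15% of all genes, and 0 were higher against 6.27%. That count rests on single arrays: it was 0 without untreated MRL/MpJ, 2 without untreated C57BL/6, MRL/MpJ day 3 or MRL/MpJ day 60, 3 without C57BL/6 day 30 (6.27% of all genes) or day 60, 10 without C57BL/6 day 3 and 17 without MRL/MpJ day 30. Here and for the single days below, the share of all genes was computed only for the fit without C57BL/6 day 30. The other counts have no background beside them and show only how far the count depends on single arrays. The median moved to -0.32 without untreated MRL/MpJ and -0.33 without C57BL/6 day 30.

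Cpt2 had the largest difference by brightest probe sets, -0.90 (SE 0.25, adjusted p = 0.271), equal to 1.86-fold lower signals after ligation. With the mean of its 2 probe sets in place of the brightest, the Cpt2 value was -0.43. Next in size by brightest probe sets were Acaa2 at -0.70 (SE 0.33) and Etfa at -0.69 (SE 0.36), with wider errors. Mlycd, also at -0.69 (SE 0.21, adjusted p = 0.300), came next to Cpt2 by p-value, with Acat1 at -0.69 (SE 0.28, adjusted p = 0.459), Eci1 at -0.64 (SE 0.27) and Eci2 at -0.61 (SE 0.25). The uptake genes were at 0.00 (Cd36, SE 0.23), -0.02 (Lpl, SE 0.19) and -0.05 (Fabp3, SE 0.21). Acsl5 was at 0.40 (SE 0.21), Cpt1a at 0.30 (SE 0.22) and Acaa1a at 0.43 (SE 0.33).

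**Figure D3:**
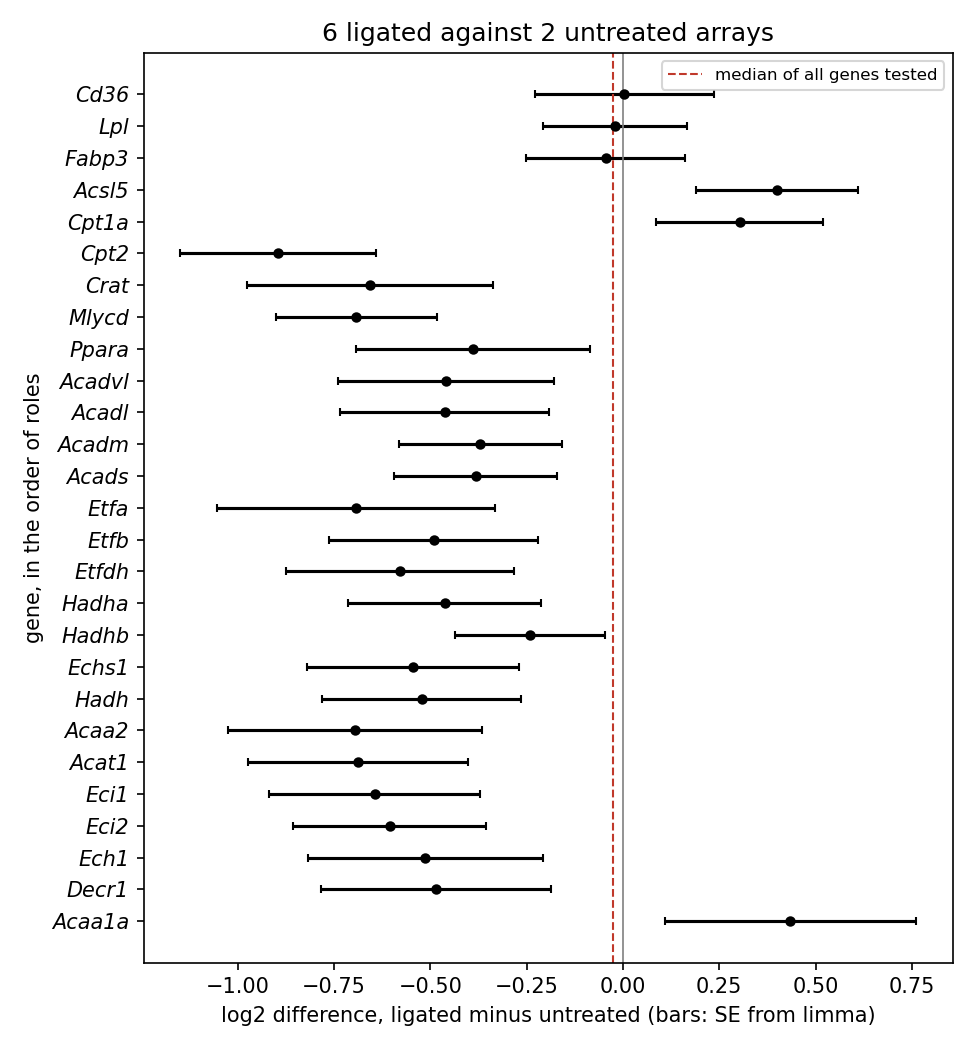
Log2 difference (horizontal axis) between the 6 ligated and 2 untreated arrays for each of the 27 genes (vertical axis, ordered by role), as points with bars of 1 standard error from the limma fit; the dashed line is the median of all genes tested, -0.03. Each gene is read by its brightest probe set. Cpt2 lies farthest to the left at -0.90, the 3 uptake genes lie near 0, and Acsl5, Cpt1a and Acaa1a lie to the right at 0.30 to 0.43.

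Taken by time, no member passed the adjusted threshold at day 3 (0% of all genes), day 30 (0.0122%) or day 60 (0.0366%) in the limma fit. At day 3 the median of the 27 was -0.46 against 0.02 for all genes, 17 of the 27 were lower in both strains against 26.9%, and 1 member, Cpt2, was lower at an unadjusted p under 0.05 against 1.99%. That median was -0.11 without MRL/MpJ day 3 and -0.75 without C57BL/6 day 3. The count at an unadjusted p was 3 without either day 30 array (4.32% of all genes without that of C57BL/6), 8 without C57BL/6 day 3, and 0 without any one of the other 5 arrays. At day 30 the median was -0.39 against -0.01, 21 were lower in both strains against 29.6%, and Cpt2 and Acat1 were lower at an unadjusted p under 0.05 against 5.23%. Without C57BL/6 day 30 no member was lower at an unadjusted p (5.52% of all genes), and on MRL/MpJ day 30 alone 23 of the 27 lay below the untreated array, as did 56.1% of all genes. The count at an unadjusted p was 13 without MRL/MpJ day 30, 0 if an untreated array was left out, 1 if a day 60 array was and 3 if a day 3 array was. The median was 0.01 without C57BL/6 day 30, -0.83 without MRL/MpJ day 30 and -0.26 without untreated MRL/MpJ.

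At day 60 the median was -0.55 against -0.06 for all genes, and 22 of the 27 were lower in both strains against 38.4%. Mlycd, at -1.16 (SE 0.26, limma adjusted p = 0.163), and Cpt2, at -1.05 (SE 0.31, adjusted p = 0.294), were the lowest, and with Eci1 (-0.88, SE 0.34) and Eci2 (-0.81, SE 0.31) they made up the 4 members lower at an unadjusted p under 0.05, against 4.42% of genes. With the mean of its 2 probe sets, Cpt2 was at -0.55. The day 60 median was -0.28 without MRL/MpJ day 60. That count of 4 became 10 without either day 30 array (8.72% of all genes without that of C57BL/6), 6 without either day 3 array, 3 without C57BL/6 day 60, 2 without untreated C57BL/6 and 1 without untreated MRL/MpJ or MRL/MpJ day 60. Between day 60 and day 3 the median of the 27 was -0.08, with 0 of 27 past the adjusted limit (0% of all genes) and 0 past an unadjusted p of 0.05 (6.43% of all genes); it was 0.19 without C57BL/6 day 3, 0.05 without MRL/MpJ day 60, -0.24 without C57BL/6 day 60 and -0.40 without MRL/MpJ day 3. The largest difference there was the lower signal of Acaa1a at day 60, -0.61 (SE 0.40), followed by that of Mlycd, -0.58 (SE 0.26), while Cpt1a was higher by 0.46 (SE 0.26).

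Within a strain each time point is 1 array against 1, with no test, and a limit of 1.5-fold was used to count. In C57BL/6, 0 of the 27 were lower by that much at day 3 (5.72% of all genes), 14 at day 30 (16.9%) and 5 at day 60 (10.5%), the last being Cpt2, Crat, Mlycd, Eci1 and Eci2. In MRL/MpJ, 20 were lower at day 3 (10.9%), 1, Cpt2, at day 30 (10.3%) and 20 at day 60 (13%). The 20 genes were the same at day 3 and day 60 in MRL/MpJ, namely Cpt2, Crat, Mlycd, Ppara and all mitochondrial enzymes but Hadhb. On these 2 arrays the second probe set of Hadhb, not used for the count, gave -0.39 and -1.23. The 2 time points share the untreated MRL/MpJ array, so a high untreated signal would lower both.

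Between the strains, most enzymes were close on the untreated arrays and differed in opposite directions at day 3 and day 30, each time as 1 array against 1. On the untreated arrays the difference between MRL/MpJ and C57BL/6 ran from -0.37 (Cd36) to 0.39 (Acadm) among the 27 genes. Of the 17 mitochondrial enzymes, all but Hadha (-0.16) and Hadhb (-0.14) were higher there in MRL/MpJ. At day 3 the strain difference was -0.99 for Acaa2, -0.99 for Ppara, -0.92 for Crat, -0.88 for Eci1 and -0.83 for Decr1, all lower in MRL/MpJ. At day 30 the sign was the other way for those genes, at 0.67, 0.55, 0.79, 0.44 and 0.70, and for Etfa it was 1.17. At day 60 MRL/MpJ was again the lower strain for all 17 mitochondrial enzymes, with differences such as -0.62 for Ech1 and -0.54 for Acaa2, and for Cpt2 at -0.91. The share of all genes in the same direction was not computed for any of these pairs of arrays.

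Averaged over the 4 pairs of arrays, the strain difference had a median of -0.08 over the 27 genes, against -0.02 for all genes, and no member passed in limma at an adjusted p (0.22% of all genes) or at an unadjusted p of 0.05 (7.96%). The lowest were Cpt2 at -0.40 (SE 0.22) and Mlycd at -0.34 (SE 0.18). Leaving out 1 array, the median was 0.08 where that array was of day 3, -0.28 for day 30, -0.14 for untreated and -0.02 for day 60. Whether the day 3 pair departed from the other 3 pairs was asked with 1 interaction term. The median was -0.59 against 0.05 for all genes, with 23 of the 27 below 0, as were 46.1% of all genes. No gene passed an adjusted p of 0.05 (0%), and of the members only Crat, at -1.31 (SE 0.47, limma adjusted p = 0.931), passed an unadjusted p, against 5.09% of all genes. With the mean of its 2 probe sets in place of the brightest, the Crat value was -0.13 (limma adjusted p = 0.981). Without either day 30 array the median was -0.34.

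The response to ligation as a whole was compared between strains in the same way. The interaction of strain with ligation had a median of -0.28 over the 27 genes against -0.02 for all genes, with 0 members past an adjusted (0%) or unadjusted p of 0.05 (2.04%) in limma, and the median was -0.07 without a day 3 array, -0.16 without a day 60 array and -0.61 without a day 30 array. A direct comparison of the strain difference at day 3 with that at day 30 was added after these values had been seen and is a description only. Its median over the 27 genes was -1.09 against 0.11 for all genes, no gene passed an adjusted p of 0.05 (0%), and 15 members passed an unadjusted one, 14 of them negative, where 19.7% of all genes did. Of all 8195 genes, 637 passed the unadjusted limit with a negative value and 977 with a positive one. It needs the C57BL/6 day 30 array and could not be fitted without it. Etfa had the largest value, -1.99 (SE 0.47, limma adjusted p = 0.156).

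The likeness of the members from array to array was measured next. Over the 8 arrays, the 136 pairs that can be formed from the 17 mitochondrial enzymes had correlations of log2 signal from 0.44 to 0.997, with a median of 0.88. Each gene was then set against the median of the 17, and an enzyme of the 17 against the median of the others. Acadvl correlated at 0.99, Echs1 at 0.97 and Decr1 at 0.97, and outside the 17 Ppara at 0.94 and Crat at 0.91. Cd36 (0.45) and Lpl (0.17) were loosely related to it, and Acsl5 (-0.78), Cpt1a (-0.69) and Acaa1a (-0.59) ran against it. These values describe 8 arrays that share their scaling, and each enzyme was left out of the median it was compared with.

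Other energy genes also had their 3 lowest medians on C57BL/6 day 30, MRL/MpJ day 3 and MRL/MpJ day 60. The 18 TCA cycle genes had median changes of -0.21, -0.58 and -0.11 at days 3, 30 and 60 in C57BL/6 and of -0.66, -0.35 and -0.60 in MRL/MpJ. The 60 subunits of the respiratory chain and ATP synthase had medians of -0.03, -0.27 and 0.01 in C57BL/6 and -0.55, -0.17 and -0.52 in MRL/MpJ. The 21 genes of glucose uptake and glycolysis had -0.12, -0.41 and -0.06, then -0.50, -0.17 and -0.27. Over ligated against untreated hearts the medians were -0.51 for the 17 β-oxidation enzymes, -0.42 for the TCA cycle, -0.31 for glycolysis and -0.28 for the respiratory chain; differences between these lists were not tested. In the limma fit, 0 genes of these 3 lists passed an adjusted p, and at an unadjusted p under 0.05 the TCA cycle had 5 lower and 0 higher, the respiratory chain 2 lower and 0 higher, and glucose uptake and glycolysis 4 lower and 1 higher. Of all genes, 4.15% were lower and 6.27% higher by that limit.

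**Figure D4:**
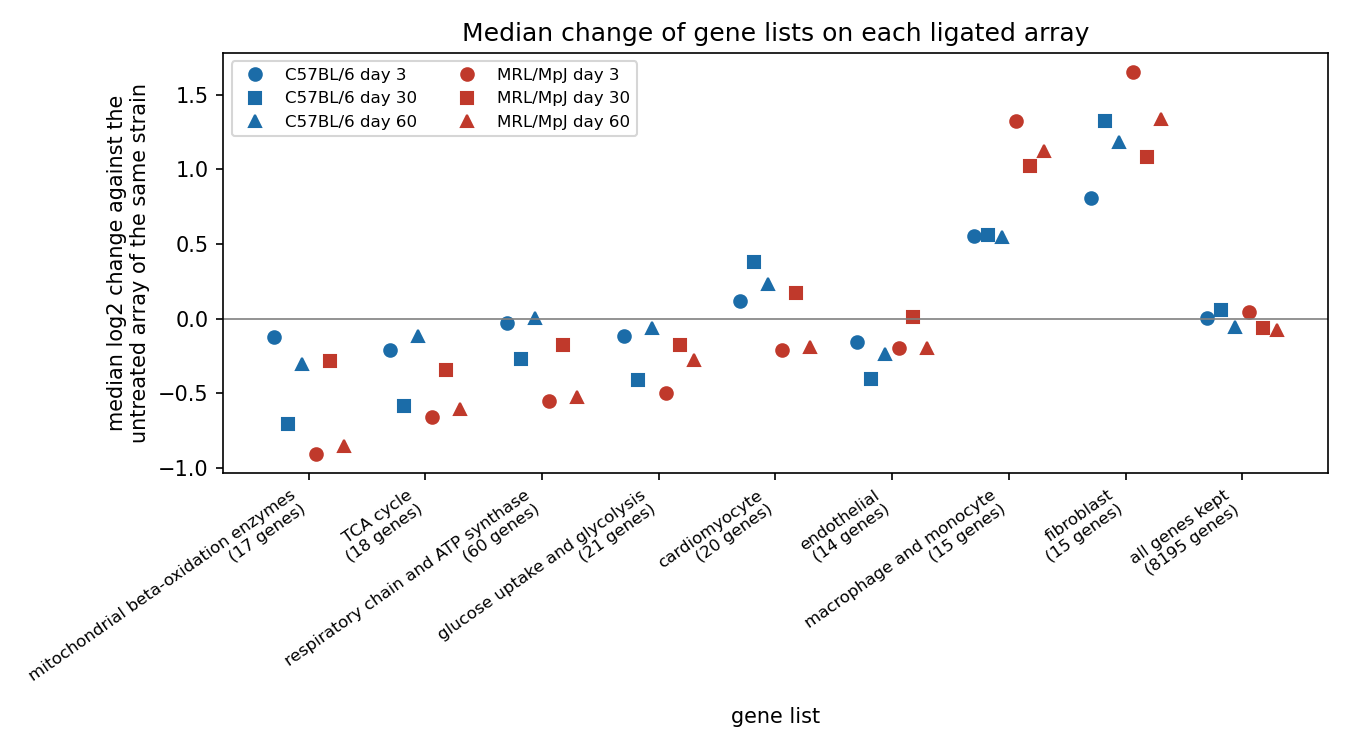
Median log2 change (vertical axis) of gene lists (horizontal axis, with the number of genes in each) on each of the 6 ligated arrays against the untreated array of the same strain; C57BL/6 is blue and MRL/MpJ red, circles are day 3, squares day 30 and triangles day 60, and no error is drawn because each point is 1 array. β-oxidation enzymes reach -0.90 on MRL/MpJ day 3, cardiomyocyte markers lie between -0.21 and 0.38, and fibroblast markers lie between 0.80 and 1.65.

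Markers of the cells in the tissue gave the following values beside this. The 20 cardiomyocyte markers had median changes of 0.12, 0.38 and 0.23 in C57BL/6 and -0.21, 0.17 and -0.19 in MRL/MpJ, so on C57BL/6 day 30, the array that stood apart, their median was above 0 where the β-oxidation median was -0.70. In the order of days, 6, 7 and 6 of the 20 markers were below their untreated signal in C57BL/6, and 13, 6 and 16 in MRL/MpJ. The summed signal of these markers was 302943 and 345153 on the untreated arrays and 299746 to 500639 on the ligated ones. The highest sum was on C57BL/6 day 30, and the next was 397335 on MRL/MpJ day 30. The 15 fibroblast markers summed to 14179 and 15494 on the untreated arrays and to 36839 to 78184 on the ligated ones, with MRL/MpJ day 3 highest. The 18 macrophage and monocyte markers, 15 of them above the limit, summed to 8452 and 5672 untreated and to 11223 to 15491 after ligation, again highest on MRL/MpJ day 3. The 14 endothelial markers summed to 11273 and 9742 untreated and to 8162 to 10028 after ligation, and the 12 adipocyte markers measured of 15 listed, 8 of them above the limit, to 6532 and 8193 untreated and 6313 to 14894 after ligation. The part of these cell types in the lower enzyme signals was not tested.

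A wider list of 68 fatty acid genes outside the 32, of which 53 could be tested, had a median of -0.24 for ligated against untreated hearts, with 39 of the 53 below 0. Over all genes the median was -0.03, with 53.2% below 0. In limma 0 of the 53 passed an adjusted p at any time point, and at an unadjusted p under 0.05 the ligated comparison had 3 lower and 1 higher, day 3 had 0 and 1, day 30 had 5 and 1, and day 60 had 4 and 1. The shares of all genes higher by that limit were 6.27%, 4.54%, 5.77% and 6.16%, beside the shares lower given above. The 1 higher gene was each time Lrp1, a lipoprotein receptor, at 542 and 398 untreated and between 736 and 1295 after ligation (1.09, SE 0.23, adjusted p = 0.127). Acacb, which makes the malonyl-CoA that holds Cpt1 in check, was at 1464 and 1329 untreated and between 604 and 1202 after ligation (-0.73, SE 0.27), and Rxrg, a partner receptor of the PPARs, was lower by the same comparison at -0.99 (SE 0.36). The third lower gene was Hsd17b10, a mitochondrial dehydrogenase, at -0.63 (SE 0.26).

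In that wider list, 4 of the 53 genes were lower in MRL/MpJ at an unadjusted p under 0.05 in limma and 0 were higher. Of all 8195 genes, 348 were lower and 304 higher by that limit. Pdk2, a kinase that shuts off pyruvate dehydrogenase, was at 1592, 1492, 905 and 1202 in C57BL/6 and 686, 366, 530 and 357 in MRL/MpJ (-1.39, SE 0.23, limma adjusted p = 0.0825). Dgat2, which makes triglyceride, was at -1.10 (SE 0.24), Lpin1, a phosphatidate phosphatase and coactivator of PPAR alpha, at -1.0 (SE 0.27) and Ucp3, the mitochondrial uncoupling protein of muscle, at -0.61 (SE 0.19). For the day 3 pair against the others, 5 of the 53 were lower and 0 higher at an unadjusted p under 0.05 in limma, and 0 passed an adjusted p. Among all 8195 genes, 149 were lower and 268 higher by that unadjusted limit. In the wider list Pdk4 stood at 3153, 1799, 806 and 716 in C57BL/6 and 2324, 597, 3103 and 2364 in MRL/MpJ, and Ppargc1a, a coactivator of mitochondrial genes, at 807, 1312, 1072 and 778 against 858, 459, 737 and 775. Slc25a20, the translocase that carries acylcarnitines between Cpt1 and Cpt2, is added here after its values were seen: it was at 1508, 1354, 511 and 1285 in C57BL/6 and 1189, 496, 1315 and 522 in MRL/MpJ, low on the 3 arrays on which the enzymes were low.

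Where a gene had more than 1 probe set, the others gave similar values for some genes and not for others. Of the 29 genes, 13 had several. The 3 probe sets of Acaa2 gave ligated differences of -0.70, -0.94 and -0.97, the 3 of Acat1 -0.69, -0.36 and -0.61, and the bright pair of Hadh -0.52 and -0.84. The pair of Hadhb gave -0.24 and -0.33, but the dimmer was at -1.23 on MRL/MpJ day 60, where the brighter was at -0.43. Cd36 was less uniform: its brightest probe set gave 0.00, the next (mean signal 3905) -0.25 and the dimmest (mean signal 847) -0.70, with -0.95 on MRL/MpJ day 3 and -1.25 on C57BL/6 day 30. The second probe set of Lpl, at a mean signal of 7495, gave -0.30 against -0.02, with -0.83 on MRL/MpJ day 3. For Cpt2 the dimmer probe set (mean signal 230.1 against 1216) gave 0.03 against -0.90, so the lower signal of Cpt2 was seen by 1 of its 2 probe sets. The second probe set of Crat, with a mean signal of 160.4 against 871.9, gave 0.55 on C57BL/6 day 30 and -2.09 on MRL/MpJ day 30, where the brighter one gave -0.59 and -0.16. The other 2 probe sets of Cpt1a did not reach 121 on any array.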

How the data were processed

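The values were signal intensity on a linear scale for 22626 probe sets per array, deposited by the authors; the submitters' processing notes name MAS5 as the tool, and detection calls and scanner files were not used here. Probe sets were tied to genes through the platform annotation (20380 with 1 symbol, 691 with several, 1555 with none), and the brightest probe set of a gene by mean log2 value, among those with its symbol alone, stood for it. An offset of 28.6 was added before log2. Genes at or above 121 on at least 2 arrays were tested with limma 3.58.1 (R 4.3.3), with strain and time as factors (3 residual degrees of freedom, estimated from the strain-by-time differences because each group has 1 array; interactions had 2), and p-values were adjusted over all 8195 genes. The test was checked on simulated data with noise drawn independently for each gene and array. That check does not cover strain-by-time differences shared by many genes. The p-values weigh an effect against the strain-by-time differences, which may be technical or real differences in time course between the strains. Spread between replicates was not measured. The precision is limited by the number of arrays. All members may be named; of other lists, the 5 genes with the smallest p in a comparison. The members, lists and tests were chosen with earlier results of these data known. Alternatives were other offsets, normalizations, filters, probe set rules, a trended prior and leaving out each array.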

Additional observations from a re-analysis of the deposited data

How the results depend on the processing

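No paired analysis by replicate number was possible because each group holds 1 array; the additive model itself sets the strains against each other within each time. Under the alternatives run (offset, normalization, filter, probe set rule, prior, samples in the fit, each array left out), the count of members past an adjusted p of 0.05 stayed at 0 in all 140 refits. Of 140 refitted medians over members, 134 stayed within the spread between strains or pairs. That limit is wide, being the standard deviation of 2 strain medians or of a few pairs, so this count does not show stability. At day 3 the strain medians were -0.06 and -0.86, and a move from -0.46 to -0.11 without MRL/MpJ day 3 still lay within the limit. Leaving out 1 array at a time gave medians from -0.83 to 0.0055 at day 30 and from -0.40 to 0.19 for day 60 against day 3; the count of members with every ligated array below every untreated array ran from 13 to 20, and that of members lower at an unadjusted p, for all ligated hearts, from 0 to 17, from 0 to 8 at day 3, from 0 to 13 at day 30 and from 1 to 10 at day 60 (all chosen after seeing the data). The comparison of the strain difference at day 3 with that at day 30, also chosen after seeing the data, had a median of -1.47 with each array scaled to the same median. With a 2-fold in place of a 1.5-fold limit, 6 members were lower on MRL/MpJ day 3, 3 on C57BL/6 day 30, 0 on MRL/MpJ day 30, 0 on C57BL/6 day 60 and 9 on MRL/MpJ day 60. The share of all genes was not computed for the 2-fold counts, nor for counts with an array other than C57BL/6 day 30 left out. On MRL/MpJ day 30 the 1.5-fold count was 3 with quantile normalization and 2 with the mean of all probe sets, and without a filter it was 1 on C57BL/6 day 3. Of 398 refits of single genes, 1 changed sign, that of Crat for the added comparison with the mean of all probe sets (0.42); the cause was not tested. Interactions could not be fitted without an array that they need. Dim genes near 121 and the brightest ones are measured with the least range.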
